A study of Homo sapiens with 12 samples.

Results

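The replication-dependent histone genes were followed with and without Y15 in TPC1, BCPAP and K1 cells, 3 established lines of papillary thyroid cancer. Y15 is a small molecule inhibitor of focal adhesion kinase (FAK). They were taken by name: the genes whose current symbol is H1-1 to H1-6, or H2AC, H2BC, H3C or H4C followed by a number. Of 20044 named genes with a probe on the Illumina bead array, 69 were histone genes of this kind, read by 78 probes. There were 12 arrays in 6 groups of 2 arrays each: TPC1, BCPAP and K1 cells given 10 µM Y15, and TPC1, BCPAP and K1 cells given none, all with a labelled duration of 24 h. Each group is 1 established cell line grown in culture. The labels do not say whether the 2 arrays of a group came from separate cultures, so the p-values measure only the spread between these samples, which may be technical.

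Histones package DNA. A pair each of H2A, H2B, H3 and H4 forms the nucleosome core, and H1 binds the linker DNA between cores. The replication-dependent genes supply the bulk of these proteins during S phase, when DNA is copied. They lie in clusters, lack introns, and give mRNAs that end in a stem-loop in place of a poly(A) tail. Histone mRNA is made as S phase begins and is degraded quickly when DNA synthesis stops. Some of these genes also give polyadenylated transcripts, mostly in cells that leave the cycle. The labelling kit named for these arrays primes its first strand with oligo(dT), so it copies RNA with a poly(A) stretch.

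Promoter sequence was taken from RefSeq (GRCh38.p14), which matched 64 of the 69 genes. In these, 50 lay on chromosome 6, 13 on chromosome 1 and 1 on chromosome 12. Windows of 300 bases, of which 250 precede the start of the gene, were searched on both strands for 5 motifs. The octamer ATTTGCAT, the site of the factor POU2F1 (Oct-1), was in 77.8% of the 18 H2B windows and 68.8% of the 16 H2A windows, in 0 of the H4, H3 and H1 windows, and in 1.77% of all 35116 windows. The letters GGTCCG, the core of the H4 site bound by HINFP, were in 92.3% of the 13 H4 windows against 11.3% of all windows. The letters AAACACA, known from H1 promoters, were in 100% of the 6 H1 windows against 5.64% of all. CCAAT was in 84.4% of the 64 windows against 34.6% of all, and TATAAA in 65.6% against 11.5%. A match is a string of letters, and binding was not measured.

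The 4 stretches printed here, upstream of genes described below, show examples of these letters. Capitals mark every match to the 5 motifs on either strand. For H4C12, chr6:27831561-27831710 on the minus strand, they are GGTCCG and TATAAA. For H2BC12, chr6:27146856-27147005 on the minus strand, they are CCAAT, the octamer and TATAAA. For H2AC20, chr1:149886683-149886917 on the plus strand, they are the same 3 motifs and 2 matches to GGTCCG, the first of which overlaps a CCAAT match, so these letters are not limited to H4 genes. The 235 bases shown for H2AC20 are all that separates its start from that of H2BC21 on the other strand. For H1-2, chr6:26056471-26056620 on the minus strand, they are AAACACA and CCAAT.
H4C12: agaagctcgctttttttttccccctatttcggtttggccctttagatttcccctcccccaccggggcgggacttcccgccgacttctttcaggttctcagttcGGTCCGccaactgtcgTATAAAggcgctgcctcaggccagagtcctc
H2BC12: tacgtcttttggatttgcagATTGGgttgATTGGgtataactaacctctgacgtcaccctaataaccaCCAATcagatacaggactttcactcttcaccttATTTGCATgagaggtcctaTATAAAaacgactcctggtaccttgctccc
H2AC20: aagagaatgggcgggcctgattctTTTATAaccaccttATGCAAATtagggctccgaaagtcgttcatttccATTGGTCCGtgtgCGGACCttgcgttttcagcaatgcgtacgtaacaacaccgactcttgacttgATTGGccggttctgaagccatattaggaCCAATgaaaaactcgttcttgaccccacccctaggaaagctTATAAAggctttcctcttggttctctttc
H1-2: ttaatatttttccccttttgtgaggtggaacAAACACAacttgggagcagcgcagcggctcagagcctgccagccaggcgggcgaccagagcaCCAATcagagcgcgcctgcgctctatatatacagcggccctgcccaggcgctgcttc

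Mean signal per array was between 215.4 and 393, and between 33.8% and 43.1% of probes were above background at a detection p under 0.05. Both of the lowest values were those of BCPAP untreated replicate 2. The lowest log2 signal called above background on that array, 6.95, was the highest of the 12 arrays. K1 Y15 replicate 1 stood apart from replicate 2 of its group. Between these 2 arrays 7.84% of the 12338 genes tested differed by over 0.5 on the log2 scale, against at most 0.624% between the replicates of any other group. Of the thyroid markers, PAX8 and FOXE1 were above background, NKX2-1 was so in BCPAP alone, and TG, TSHR and SLC5A5, which mark differentiated follicular cells, were not above background on both arrays of any group. The leukocyte markers PTPRC and CD3E and the endothelial markers PECAM1 and VWF were not above background on both arrays of any group either. The third leukocyte marker, CD68, a lysosomal protein of macrophages that other cells also make, was above background on all 12 arrays. It was called higher with Y15 in TPC1 and BCPAP (log2 changes of 0.56 and 0.85), and its part in the histone values was not tested.

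Most of the histone genes gave little signal. Only 31 of the 69 exceeded background on both replicates in some group, and these 31 were tested, among 12338 genes tested in all. Each gene is read here by the probe of highest mean signal, and it can pass this filter through 1 group alone. The 31 were 7 of 15 H4 genes, 7 of 13 H3 genes, 7 of 17 H2A genes, 8 of 18 H2B genes and 2 of 6 H1 genes. The other 38 were not above background on both arrays of any group by that probe, although a dimmer probe of H3C13 was so in untreated K1. On all 12 arrays 11 genes were above background, namely H4C3, H4C12, H4C14, H2AC6, H2AC18, H2AC19, H2AC20, H2BC5, H2BC12, H2BC21 and H1-2. None of the H3 genes was among them, and the highest group mean of any H3 gene was 7.07 on the log2 scale, where the lowest signal called above background was between 6.85 and 6.95. H4C3 had the highest mean log2 signal of the 69, 12.87, although signals of different probes do not rank the genes by abundance. Of the 69 genes, TPC1 with Y15 had 24 above background on both arrays against 19 in untreated TPC1. BCPAP with Y15 had 17 against 16 in untreated BCPAP, and K1 with Y15 had 21 against 25 in untreated K1. Of all named genes with a probe, 51.1% were above background on both arrays in TPC1 with Y15 against 53.9% in untreated TPC1. The shares were 51.7% against 45.8% in BCPAP and 50.8% against 53.1% in K1. The histone counts are a description and were not tested.

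**Figure D1:**
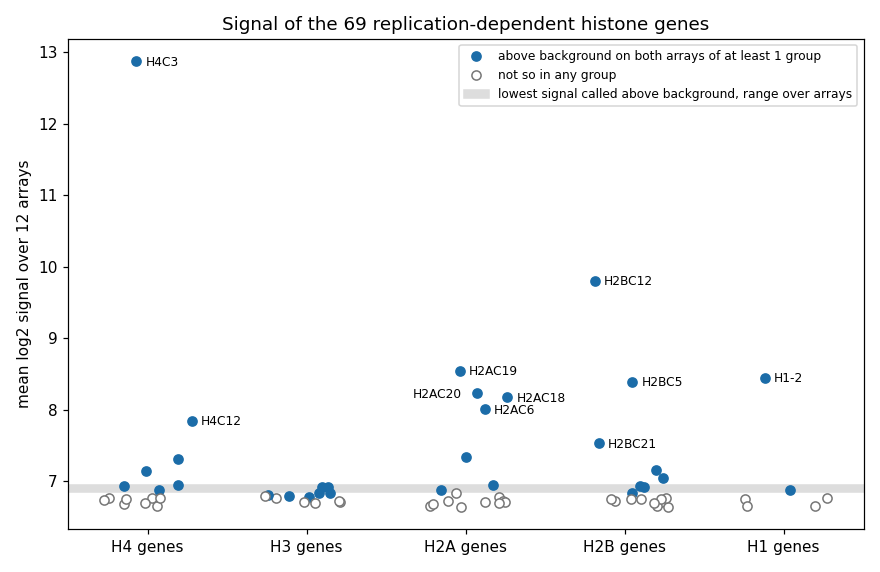
Mean log2 signal over the 12 arrays of the brightest probe of each of the 69 histone genes, by class. Filled points are the 31 genes tested and open points the 38 whose brightest probe was not above background on both arrays of any group; the grey band is the lowest signal called above background, 6.85 to 6.95 over the arrays. H4C3, at 12.87, lies far above the others, and no H3 gene leaves the band by much.

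Values are log2 signals after quantile normalization. Log2 changes are Y15 minus untreated, from limma fitted to all 12 arrays, and a gene is called at a Benjamini-Hochberg adjusted p under 0.05 over the 12338 genes. In TPC1 cells 4 of the 31 histone genes were higher with Y15, H2BC12, H1-2, H2BC8 and H4C5, and 1 was lower, H4C3. In the background of all genes 15.4% were called higher and 16.1% lower in this line. In BCPAP cells 1 was higher, H4C8, and 1 lower, H3C2, against 8.69% and 7.62% of all genes. In K1 cells 1 was higher, H2BC12, and 2 were lower, H4C3 and H4C12, against 4.63% and 5.93% of all genes. In this fit no line thus had a share of called histone genes above the background (16.1%, 6.45% and 9.68% of the 31 in TPC1, BCPAP and K1, against 31.4%, 16.3% and 10.6% of all genes). Fitted on its 4 arrays alone, K1 had 0 called genes of 12338, the 3 histone genes included, and 1990 genes at an unadjusted p under 0.05 (limma). At an unadjusted p under 0.05 in the fit of 12 arrays there were 11, 4 and 9 histone genes in TPC1, BCPAP and K1 (35.5%, 12.9% and 29% of the 31), against 40.3%, 30.5% and 25.9% of all genes. Both Y15 arrays lay above both untreated arrays for 16 of the 31 genes in TPC1, against 36% of all genes, for 8 in BCPAP, against 31.3%, and for 8 in K1, against 25.5%. They lay below for 6, 7 and 10 genes, against 36.7%, 27% and 25.2%. These counts are a description, since a gene can pass the filter through its brighter group alone. The 31 genes had median log2 changes of 0.10 (TPC1), 0.03 (BCPAP) and 0.04 (K1), against 0.00, 0.01 and 0.00 over all genes tested. With each array centred on its median in place of quantile normalization, the median of all genes moved to -0.21, 0.24 and -0.10 and that of the histone genes to 0.06, 0.06 and -0.07, so the sign turned in K1, and relative to the median of all genes it turned in BCPAP. With neqc, a background correction from the detection p-values, the histone medians in TPC1 and K1 were higher than in the fit above, as given in the last section. The medians of all genes with neqc were -0.00065, 0.024 and 0.0069 in TPC1, BCPAP and K1.

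**Figure D2:**
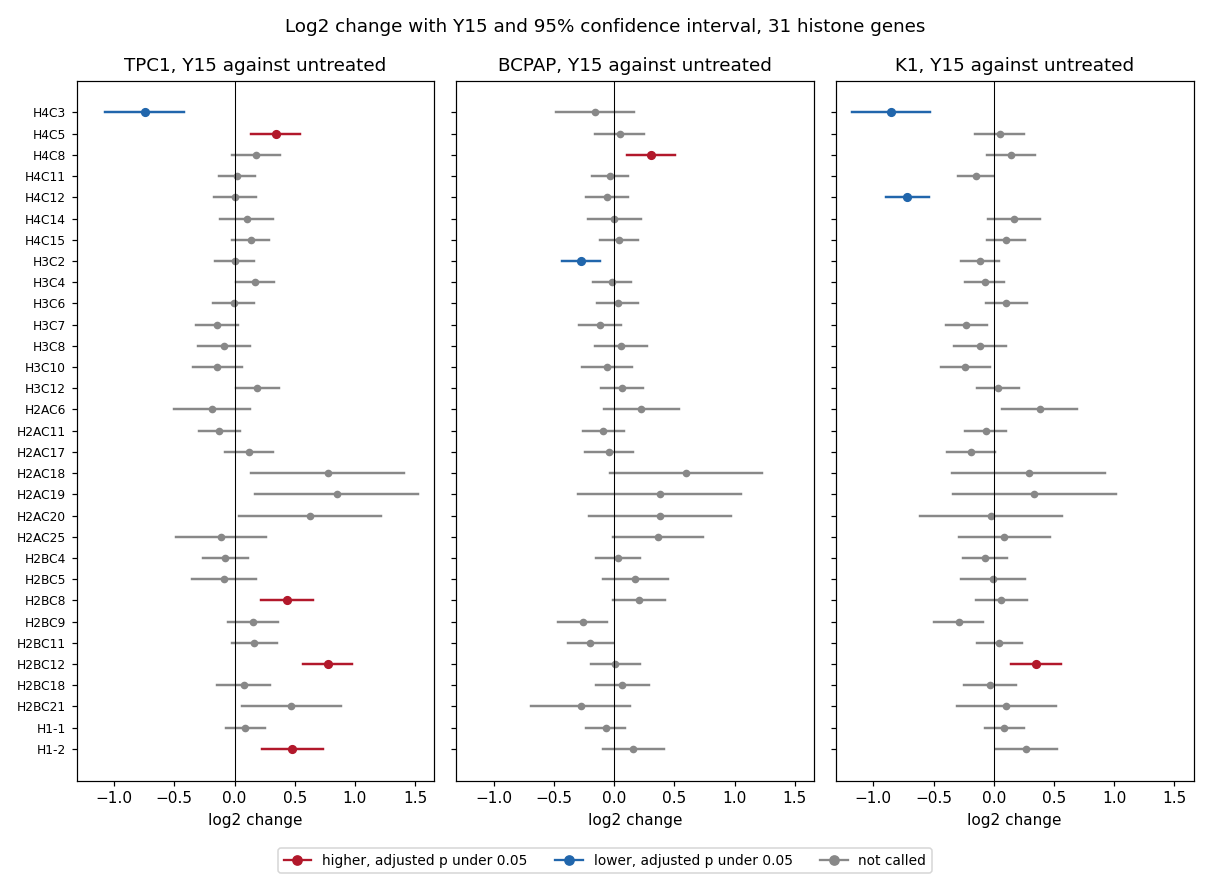
Log2 change with Y15 (horizontal axis, Y15 minus untreated) of the 31 histone genes tested, in TPC1, BCPAP and K1, with the 95% confidence interval of the limma fit. Red points are the 4, 1 and 1 genes called higher and blue points the 1, 1 and 2 called lower in TPC1, BCPAP and K1; the intervals of H2AC18, H2AC19 and H2AC20 are the widest.

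H4 pairs with H3 to form the tetramer on which the nucleosome is built, and nearly all H4 genes encode the same protein. H4C3 had the lowest log2 change of the 31 genes in both TPC1 and K1. In TPC1 cells its log2 signal was 12.67 and 12.70 with Y15 against 13.34 and 13.53 in untreated cells, and in K1 cells it was 12.13 and 12.66 with Y15 against 13.11 and 13.38 in untreated cells. In BCPAP cells it was 12.63 and 12.69 with Y15 against 12.86 and 12.78 in untreated cells. Both Y15 arrays lay below both untreated arrays in each of the 3 lines, as they did for 36.7%, 27% and 25.2% of all genes. With Y15 the log2 signal of H4C3 fell by 0.75 in TPC1 (SE 0.148, adjusted p = 0.0026 from limma), which is 1.68-fold lower, and by 0.85 in K1 (adjusted p = 0.00503), or 1.81-fold. Its log2 change was -0.16 in BCPAP (95% interval -0.49 to 0.16, adjusted p = 0.509), and the F test of limma called no difference among the lines (adjusted p = 0.0664). The K1 call ended without K1 untreated replicate 2 (-0.72, adjusted p = 0.062) and with median centring (-1.002, adjusted p = 0.134), and with median centring the value in BCPAP was 0.39, without a call. In bulk RNA, fewer cells that make a transcript and less of it per cell cannot be told apart.

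H4C12 was lower with Y15 in K1 cells and nearly the same in the other lines. Its log2 signal in K1 was 7.76 and 7.81 with Y15 against 8.41 and 8.59 in untreated cells. In TPC1 it was 7.43 and 7.40 with Y15 against 7.43 and 7.40 in untreated cells, and in BCPAP 7.95 and 7.97 with Y15 against 7.96 and 8.08 in untreated cells. The groups were apart in K1 and overlapped in TPC1 and BCPAP. H4C12 fell by 0.72 in K1 (SE 0.08, adjusted p = 0.000433 from limma), 1.64-fold, whereas the log2 change was 0.00 in TPC1 (95% interval -0.17 to 0.18) and -0.06 in BCPAP (-0.23 to 0.12). The lines differed in their response (adjusted p = 0.00221, F test of limma), as they did for 18.6% of all genes tested, with a difference in log2 change of 0.72 for TPC1 minus K1 (SE 0.113, adjusted p = 0.00278) and 0.66 for BCPAP minus K1 (adjusted p = 0.00726). The K1 value was called when either K1 Y15 array was left out (-0.69 and -0.74), and not when the 4 K1 arrays were fitted alone (adjusted p = 0.112).

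H4C5 and H4C8 lay near background. In TPC1 cells H4C5 had 7.004 and 7.13 with Y15 against 6.75 and 6.71 in untreated cells, where it was not above background. Its Y15 mean was 1.16-fold the lowest signal called above background, a ratio that carries no sampling error. The log2 change of H4C5 in TPC1 was 0.34 (SE 0.0919, adjusted p = 0.0151 from limma). H4C8 in BCPAP cells had 7.20 and 7.17 with Y15 against 7.01 and 6.75 in untreated cells, where 1 of the 2 arrays was above background. Its log2 change was 0.31 (SE 0.0899, adjusted p = 0.0387). Both calls ended with median centring (adjusted p = 0.0714 for H4C5 and 0.0521 for H4C8), and both rested on single arrays. H4C5 lost its call without TPC1 Y15 replicate 2 or either untreated TPC1 array (adjusted p from 0.0644 to 0.124). H4C8 lost it when any of 9 arrays was left out (adjusted p up to 0.238, with a log2 change of 0.18, without BCPAP untreated replicate 2). The H4 genes H4C11, H4C14 and H4C15 had log2 changes between -0.15 and 0.17 in the 3 lines and were not called.

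None of the 7 H3 genes was called in TPC1 or K1. H3C2 in BCPAP cells had 6.71 and 6.75 with Y15, not above background, against 6.93 and 7.07 in untreated cells. Its untreated mean in BCPAP was 1.10-fold the lowest signal called above background, a ratio that carries no sampling error. The log2 change in BCPAP was -0.28 (SE 0.073, adjusted p = 0.0257 from limma). That call ended with median centring (adjusted p = 0.109) and without either BCPAP Y15 array (adjusted p = 0.147 and 0.0758) or BCPAP untreated replicate 2 (adjusted p = 0.142). H3C7, the H3 gene of highest mean signal, had 6.85 and 6.89 with Y15 against 6.97 and 7.07 untreated in TPC1. In BCPAP it had 6.77 and 6.86 with Y15 against 7.01 and 6.86 untreated. In K1 it had 6.82 and 6.86 with Y15, not above background, against 7.09 and 7.05 untreated. Both Y15 arrays of H3C7 were below both untreated arrays in TPC1 and K1, and neither difference was called (log2 changes -0.15 and -0.23, adjusted p = 0.185 and 0.0849). With neqc the K1 value of H3C7 was -0.77 and called (adjusted p = 0.0399 from limma). The other H3 genes had log2 changes between -0.23 and 0.19, and signal this close to background leaves little room to show a fall.

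H2A and H2B form the dimers that complete the nucleosome core. H2BC12, an H2B gene, is known to give polyadenylated transcripts as well. In TPC1 cells it had 10.05 and 9.94 with Y15 against 9.29 and 9.15 in untreated cells, and in K1 cells 9.77 and 9.81 with Y15 against 9.45 and 9.42 in untreated cells. In BCPAP cells it had 10.32 and 10.07 with Y15 against 10.13 and 10.24 in untreated cells. The groups were apart in TPC1 and K1 and overlapped in BCPAP. H2BC12 rose by a log2 change of 0.77 in TPC1 (SE 0.0936, adjusted p = 0.000104 from limma), 1.71-fold, and by 0.35 in K1 (adjusted p = 0.0365), and its log2 change was 0.01 in BCPAP (95% interval -0.20 to 0.22). The lines differed in response (adjusted p = 0.00704, F test of limma), by 0.76 for TPC1 minus BCPAP (SE 0.132, adjusted p = 0.00284), while TPC1 minus K1, 0.42, was not called (adjusted p = 0.0787). A dimmer H2BC12 probe gave log2 changes of 0.68 (TPC1), -0.09 (BCPAP) and 0.18 (K1). Neither call held under median centring (0.29 in TPC1, adjusted p = 0.354, and 0.11 in K1, adjusted p = 0.873), and the K1 call also ended when any TPC1 array or either untreated K1 array was left out (adjusted p from 0.0543 to 0.171).

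H2BC8, which shares a start region with H2AC8 on the other strand, had 7.22 and 7.28 in TPC1 with Y15 against 6.82 and 6.81 in untreated TPC1, where it was not above background. Its Y15 mean in TPC1 was 1.32-fold the lowest signal called above background, a ratio that carries no sampling error. The log2 change in TPC1 was 0.44 (SE 0.0975, adjusted p = 0.00541 from limma). In BCPAP it had 7.21 and 7.14 with Y15 against 7.05 and 6.89 untreated, and in K1 7.19 and 6.90 with Y15 against 7.01 and 6.96 untreated. Neither was called (log2 changes 0.21 and 0.06). H2BC5, the other bright H2B gene, had log2 changes of -0.09, 0.18 and -0.01 in TPC1, BCPAP and K1 and was not called, while a dimmer probe of it had 0.28 in BCPAP (adjusted p = 0.0337 over the probes above background).

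**Figure D3:**
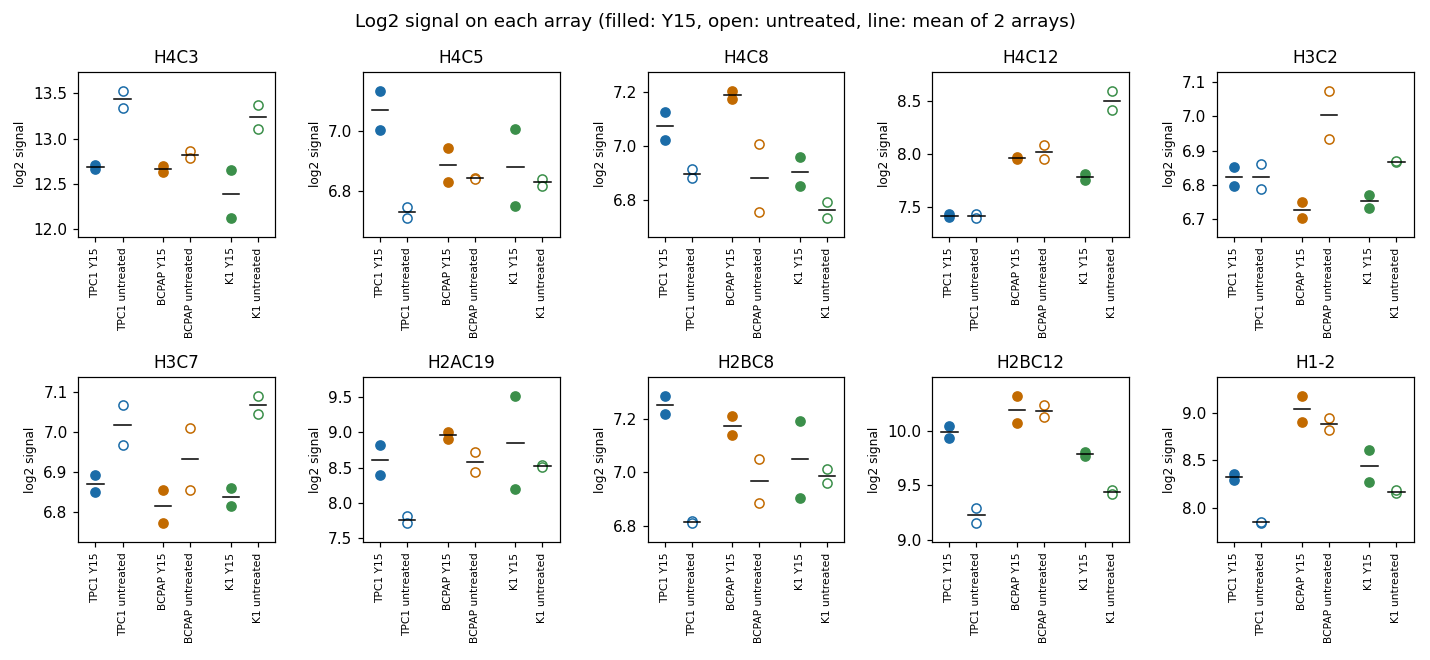
Log2 signal on each array of the 8 histone genes called in at least 1 line and of H2AC19 and H3C7, the brightest tested genes of their classes, on a vertical axis of its own for each gene. Filled points are Y15 arrays, open points untreated arrays and lines the mean of 2 arrays; H4C3 is lower with Y15 in TPC1 and K1, H2BC12 higher in the same lines, and the 2 K1 Y15 arrays of H2AC19 lie at 9.51 and 8.20.

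Among the H2A genes the 3 brightest, H2AC18, H2AC19 and H2AC20, lie close together on chromosome 1. H2AC19 is given as the brightest of its class; H2AC18, H2AC20 and H2BC21 were picked after their values were seen. H2AC18 and H2AC19 encode the same protein and are near-identical copies, so their probes may read both. In TPC1 cells H2AC19 had 8.39 and 8.83 with Y15 against 7.81 and 7.72 in untreated cells. H2AC18 had 8.12 and 8.25 with Y15 against 7.48 and 7.34 in untreated cells. H2AC20 had 8.19 and 8.31 with Y15 against 7.64 and 7.60 in untreated cells. Each had both Y15 arrays above both untreated arrays, as had 36% of all genes in TPC1, with log2 changes of 0.85, 0.78 and 0.63, and none was called (adjusted p = 0.057, 0.0627 and 0.102). With neqc H2AC19 and H2AC18 were called higher in TPC1 (1.24 and 1.33, adjusted p = 0.0467 and 0.0386 from limma), and H2AC20 was not.

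The BCPAP arrays of these 3 genes were apart as well. H2AC19 had 9.002 and 8.91 with Y15 against 8.44 and 8.72 in untreated BCPAP. H2AC18 had 8.67 and 8.73 with Y15 against 8.04 and 8.17 in untreated BCPAP. H2AC20 had 8.58 and 8.50 with Y15 against 8.11 and 8.21 in untreated BCPAP. Their log2 changes were 0.38, 0.60 and 0.38 (adjusted p = 0.454, 0.187 and 0.376), and in BCPAP both Y15 arrays were above both untreated arrays for 31.3% of all genes.

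In K1 cells the 2 Y15 arrays fell on either side of the untreated ones. H2AC19 had 9.51 and 8.20 with Y15 against 8.53 and 8.51 in untreated K1. H2AC18 had 9.11 and 7.81 with Y15 against 8.23 and 8.10 in untreated K1. H2AC20 had 8.99 and 7.78 with Y15 against 8.46 and 8.36 in untreated K1. Replicate 1 was above replicate 2 by 1.32, 1.30 and 1.21, and H2BC21, H2AC6 and H2AC25 were also over 0.5 higher on replicate 1 (0.80, 0.60 and 0.59), while H4C3 was 0.53 lower. These 7 were the histone genes that differed by over 0.5 between the K1 Y15 arrays, and in each of the other 5 groups 0 did. The fit shares 1 spread over the 6 groups, so this pair of arrays widens the standard error of these genes in every line, to 0.289 for H2AC18 against a median of 0.0934 over the 31 genes.

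Without K1 Y15 replicate 1, and equally without replicate 2, H2AC18, H2AC19 and H2AC20 were called higher in TPC1 (adjusted p = 2.19e-06, 3.21e-05 and 8.24e-06 from limma) and in BCPAP (adjusted p = 7.69e-05, 0.0273 and 0.00164). The number of histone genes called higher was then 9 in TPC1 and 6 in BCPAP, and that called lower 2 and 3, while the share of all genes called grew to 40% in TPC1 and 27.7% in BCPAP. In K1 the direction depended on the array kept. Without replicate 1 the log2 changes of H2AC18, H2AC19 and H2AC20 were -0.36, -0.32 and -0.63, with H2AC18 and H2AC20 called lower (adjusted p = 0.0392 and 0.000674), and without replicate 2 they were 0.94, 0.99 and 0.58, all called higher. The second probe of H2AC18 had log2 changes of 0.90, 0.36 and 0.18 in TPC1, BCPAP and K1.

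**Figure D4:**
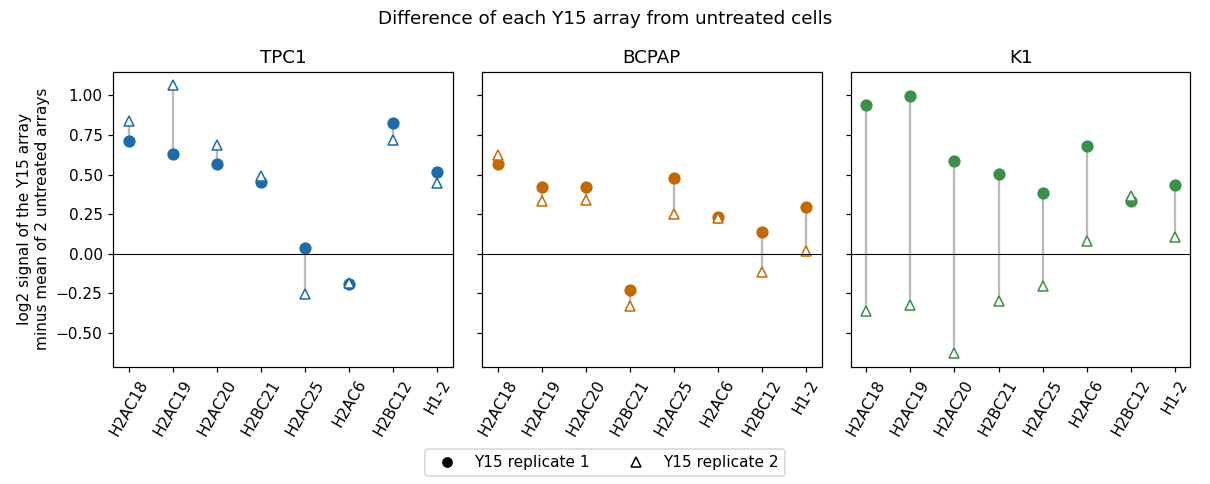
Log2 signal of each Y15 array minus the mean of the 2 untreated arrays of its line, for 8 histone genes (circles, replicate 1; triangles, replicate 2). In K1 the replicates of H2AC18, H2AC19 and H2AC20 lie on opposite sides of 0 and differ by 1.21 to 1.32, whereas those of H2BC12 nearly coincide.

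H2BC21, which shares its start region with H2AC20, is a gene known to give polyadenylated transcripts too. In TPC1 it had 7.73 and 7.77 with Y15 against 7.25 and 7.30 in untreated cells. In BCPAP it had 7.20 and 7.10 with Y15 against 7.38 and 7.47 in untreated cells, below them where H2AC20 was above. In K1 it had 8.25 and 7.45 with Y15 against 7.81 and 7.68 in untreated cells. The log2 changes were 0.47, -0.28 and 0.10, none called (adjusted p = 0.077, 0.347 and 0.788), and without either K1 Y15 array those in TPC1 and BCPAP were called (adjusted p = 0.000113 and 0.0121). In the 64 genes with a known start there were 12 head-to-head pairs with starts within 1000 bases of each other, and in 4 of them both genes were tested. The log2 changes in TPC1, BCPAP and K1 were 0.16, -0.20 and 0.05 for H2BC11 beside -0.13, -0.09 and -0.07 for H2AC11. They were -0.08, 0.03 and -0.07 for H2BC4 beside -0.19, 0.23 and 0.38 for H2AC6, and -0.15, -0.12 and -0.23 for H3C7 beside 0.15, -0.26 and -0.29 for H2BC9. None of these values was called, and the partners differed in sign in 6 of the 12 combinations of pair and line. By chromosome, 7 of the 8 tested genes on chromosome 1 had a positive log2 change in TPC1 (median 0.30), 7 in BCPAP (0.22) and 6 in K1 (0.10), while of the 21 tested genes on chromosome 6 there were 13, 10 and 9 (medians 0.02, -0.02 and -0.07). These counts include genes that share probes or starts and were not tested. H3C12 and H4C3, which was called lower in TPC1 and K1, had no promoter window and are left out of the counts by chromosome.

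H1-2 is the linker histone gene of highest signal here and also gives polyadenylated transcripts. In TPC1 cells it had 8.36 and 8.29 with Y15 against 7.84 and 7.85 in untreated cells. BCPAP cells had 9.18 and 8.90 with Y15 against 8.94 and 8.82 in untreated cells, and K1 cells had 8.61 and 8.27 with Y15 against 8.16 and 8.18 in untreated cells. The arrays were apart in TPC1 and K1 and overlapped in BCPAP. H1-2 rose by a log2 change of 0.48 in TPC1 (SE 0.115, adjusted p = 0.00804 from limma), 1.40-fold, and its log2 changes of 0.16 in BCPAP and 0.27 in K1 were not called (adjusted p = 0.397 and 0.166). The TPC1 call ended with median centring (0.11, adjusted p = 0.75) and without TPC1 Y15 replicate 1 or TPC1 untreated replicate 1 (adjusted p = 0.0604 and 0.0519), and without K1 Y15 replicate 2 the K1 value was 0.44 and called (adjusted p = 0.00615). H1-1, the other H1 gene tested, had log2 changes of 0.09, -0.07 and 0.09.

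The 6 genes listed as giving polyadenylated transcripts, H1-2, H2AC6, H2BC4, H2BC5, H2BC12 and H2BC21, were all tested. TPC1 had 2 of them higher with Y15, BCPAP 0 and K1 1, against 15.4%, 8.69% and 4.63% of all genes. None was lower in this fit, and the list had median log2 changes of 0.20, 0.09 and 0.19. With median centring the calls of H2BC12 and H1-2 ended. H2AC6 was then called lower in TPC1 (-0.54, adjusted p = 0.0384 from limma) and higher in BCPAP (0.58, adjusted p = 0.0362). With array weights H2AC6 was also called lower in TPC1 (-0.19, adjusted p = 0.0481).

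Without treatment the lines differed in their histone signal, though no more often than other genes did. Untreated TPC1 and untreated BCPAP differed in 10 of the 31 genes, against 53.1% of all genes, with H4C3 higher and 9 genes lower in TPC1. Untreated TPC1 and untreated K1 differed in 8, against 37.6% of all genes, all 8 lower in TPC1. Untreated BCPAP and untreated K1 differed in 7, against 48.3% of all genes, with H4C14, H4C15, H2BC12 and H1-2 higher in BCPAP and H4C3, H4C12 and H2BC9 lower. H4C12 and H2BC9 had the order TPC1, BCPAP, K1 from low to high, and each step was called. For H4C12 the log2 differences were -0.60 for TPC1 minus BCPAP (adjusted p = 6.57e-05 from limma) and -0.48 for BCPAP minus K1 (adjusted p = 0.000403). H1-2 was lowest in TPC1 too, by -1.03 against BCPAP (adjusted p = 1.62e-05) and -0.32 against K1 (adjusted p = 0.0457). For H2BC12, untreated TPC1 and K1 were neighbours whose difference was not called (-0.22, adjusted p = 0.0941). With median centring the counts were 5, 4 and 8. The share of all genes called in these comparisons was taken in the main fit alone. Whether the histone genes moved more than other genes cannot be told from the counts.

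For the lists of related genes that follow, the background was that 15.4%, 8.69% and 4.63% of all genes were called higher with Y15 and 16.1%, 7.62% and 5.93% lower in TPC1, BCPAP and K1. The replication-independent variants can also be made outside S phase, from polyadenylated mRNA. Of the 11 tested, Y15-treated TPC1 had 1 higher and 4 lower, BCPAP 0 higher and 1 lower, and K1 0 higher and 4 lower, with median log2 changes of -0.27, -0.07 and -0.31. CENPA, the H3 variant of centromeres, fell in each line, by 1.48, 1.18 and 1.25 in TPC1, BCPAP and K1 (adjusted p = 0.00579, 0.0337 and 0.0374 from limma). In K1 its log2 signal was 7.60 and 9.14 with Y15 against 9.63 and 9.61 in untreated cells, and its log2 change was -0.48 without K1 Y15 replicate 1 and -2.02 without replicate 2. H2AJ, an H2A variant, fell by 0.39 in TPC1 and 0.52 in K1 (adjusted p = 0.0383 and 0.0282), H3-3B, a gene of the H3.3 variant, by 0.46 in K1 (adjusted p = 0.0423), and MACROH2A2 by 0.45 in TPC1 (adjusted p = 0.0118). Single arrays moved H2AJ to -0.25 in TPC1 (without TPC1 Y15 replicate 1) and, without K1 Y15 replicate 2, H2AJ to -0.32 and H3-3B to -0.27 in K1. When each array was left out in turn, the call of CENPA in TPC1 held, and the other calls named here were lost for 2 to 10 of the 12 arrays.

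Of 14 tested genes of histone gene transcription and mRNA 3′ processing, TPC1 had 4 higher, BCPAP 1 higher and K1 1 higher with Y15, and none was lower in any line. CSTF2, a cleavage factor subunit, rose by a log2 change of 0.63 in TPC1 and 0.35 in K1 (adjusted p = 0.000151 and 0.0211 from limma). LSM10, a part of the U7 particle that directs the cleavage of histone mRNA, rose by 0.50 in TPC1 (adjusted p = 0.00283), and ERI1, an exonuclease that trims its stem-loop, by 0.48 (adjusted p = 0.0456). HINFP, the activator of H4 genes, rose by 0.29 in TPC1 and 0.37 in BCPAP (adjusted p = 0.0274 and 0.0167), although with median centring the TPC1 value was -0.08. The TPC1 calls of CSTF2 and LSM10 held without any single array, whereas those of ERI1, of HINFP in both lines and of CSTF2 in K1 were lost for 2 to 10 of the 12 arrays. SLBP, which binds the stem-loop, had log2 changes of -0.10, -0.05 and -0.02, and NPAT, the coactivator of histone genes, -0.14, 0.06 and 0.04, with no call.

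Of 19 histone chaperones, TPC1 had 5 lower, BCPAP 2 lower and K1 1 lower with Y15, and none was higher in any line. NAP1L4, a chaperone of H2A and H2B, fell by 0.98 in TPC1 (adjusted p = 0.0017 from limma) and RBBP7, which binds H4, by 0.86 (adjusted p = 0.00271). NASP, which holds H3 and H4, fell by 0.65 in TPC1 and 0.46 in BCPAP (adjusted p = 0.00387 and 0.0395), and NAP1L1 by 0.37 and 0.58 (adjusted p = 0.0373 and 0.00849). The TPC1 calls of NAP1L4, RBBP7 and NASP held without any single array, whereas those of NAP1L1 in both lines and of NASP in BCPAP were lost for 2 to 10 arrays.

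Of 25 DNA replication genes, TPC1 had 1 higher and 6 lower with Y15, whereas BCPAP and K1 each had 1 lower and 0 higher, with median log2 changes of -0.28, -0.18 and -0.21. MCM6, a subunit of the replicative helicase, fell by 0.85, 0.55 and 0.50 in TPC1, BCPAP and K1 (adjusted p = 0.00024, 0.00823 and 0.0194 from limma), although with median centring the BCPAP value was 0.01. MCM4 and MCM7, of the same helicase, fell by 0.78 and 0.60 in TPC1 (adjusted p = 0.0303 and 0.0475), and UHRF1, which maintains DNA methylation, by 0.76 (adjusted p = 0.0433). The TPC1 call of MCM6 held without any single array, and the other calls named here were lost for 2 to 10 arrays, with MCM6 in K1 at -0.31 without K1 Y15 replicate 1. The summed signal of the 25 genes was 15636 and 15433 in TPC1 with Y15 against 19890 and 20516 untreated, and 25740 and 25776 in BCPAP with Y15 against 29018 and 29155 untreated. In K1 it was 13947 and 25126 with Y15 against 21929 and 23275 untreated, so that K1 Y15 replicate 1, the array with high H2AC18, H2AC19 and H2AC20, was the lowest of the 12 and replicate 2 lay above both untreated arrays. The part of this in the histone values was not tested.

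Among 8 tested genes of cyclin E, cyclin A, CDK2 and its regulators, CDKN1A, the CDK inhibitor p21, rose by log2 changes of 2.31, 0.71 and 1.11 in TPC1, BCPAP and K1 (adjusted p = 1.36e-06, 0.00938 and 0.0014 from limma). CCNA2, cyclin A of S phase, fell by 1.30 in TPC1 (adjusted p = 0.0112), as did CDKN1C, another CDK inhibitor, by 1.04 (adjusted p = 0.000296). CCNE1, cyclin E, rose by 0.52 in K1 (adjusted p = 0.00314). Of these calls, CCNA2 lost its own without any 1 of the TPC1 arrays (adjusted p from 0.058 to 0.0643), and CDKN1A in BCPAP was lost without any 1 of 3 BCPAP arrays. In all, TPC1 had 1 gene higher and 3 lower, BCPAP had 1 higher, and K1 had 2 higher and 1 lower.

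Other RNAs that lack a poly(A) tail were small nuclear, nucleolar and cytoplasmic RNAs chosen by symbol. Of 150 tested, TPC1 had 75 higher with Y15, 1 lower and 74 not called, BCPAP 4 higher and 3 lower, and K1 3 higher and 3 lower, with median log2 changes of 0.26, 0.04 and 0.03. RNU1-3 and RNU1-1, of the U1 spliceosomal RNA, rose by log2 changes of 3.41 and 2.90 in TPC1, RNA5S9, a 5S ribosomal RNA gene, by 3.29, and SNORD3D, of the U3 nucleolar RNA, by 2.78 (adjusted p = 1.22e-05, 3.54e-05, 1.14e-05 and 7.58e-07 from limma). Copies of U1 and of 5S RNA are near-identical, so which copy is meant is uncertain. The summed signal of the 150 was 51070 and 51081 in TPC1 with Y15 against 31437 and 31108 untreated, 34182 and 34303 in BCPAP with Y15 against 34739 and 32436 untreated, and 38024 and 31961 in K1 with Y15 against 33847 and 32784 untreated. In TPC1 this move accompanied the histone calls, and in K1 replicate 1 was above replicate 2 as for the H2A genes. Its part in the histone values was not tested.

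**Figure D5:**
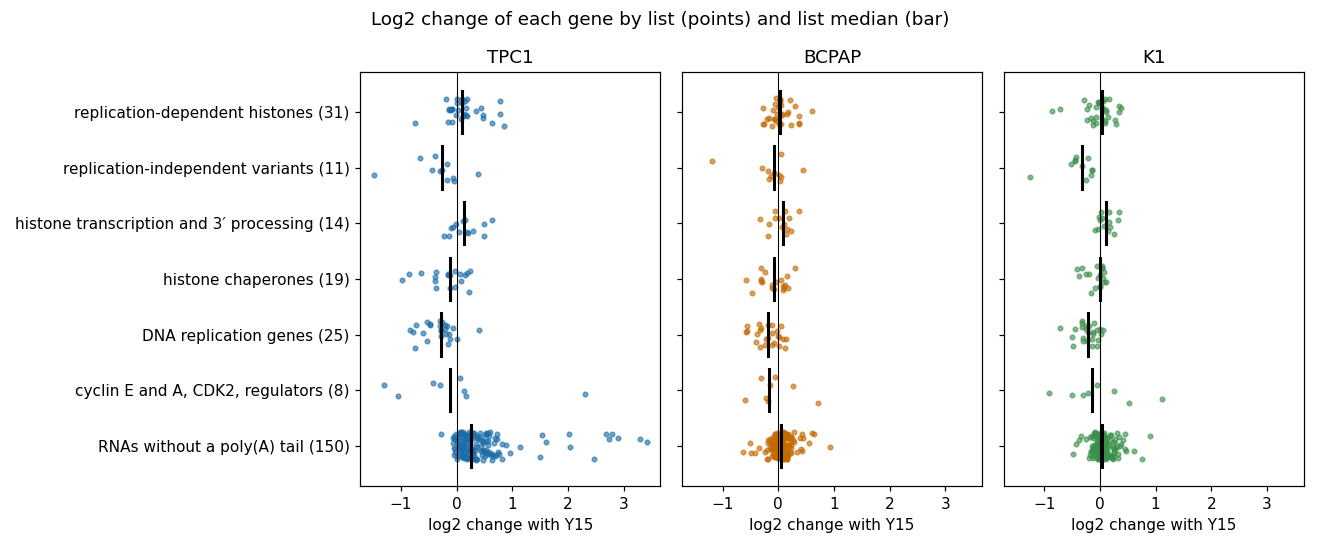
Log2 change with Y15 of each tested gene (points) in TPC1, BCPAP and K1, for the 31 replication-dependent histone genes and 6 lists of related genes, with the number tested in brackets and the list median as a bar. The histone medians of 0.10, 0.03 and 0.04 lie near 0, those of the DNA replication genes below 0 (-0.28, -0.18 and -0.21), and several RNAs without a poly(A) tail lie between 2 and 4 in TPC1 alone. With neqc the histone medians in TPC1 and K1 were higher than those drawn.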

How the data were processed

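Total RNA of 12 samples was labelled and hybridised to Illumina bead arrays, as the labels state. The authors deposited the non-normalized signal intensity of 47323 probes per array, the detection p-value of each probe, and log2 values. For the log2 values deposited, the methods name quantile normalization with lumi and a test with limma; GenomeStudio is named in the submitters' processing notes. The values used here were made from the deposited intensity by log2 and quantile normalization, and differed from the deposited log2 values by at most 5e-09. Probes were named through GEO's platform annotation, with symbols updated by Entrez id: 30109 probes had 1 gene, 8 had several and were left out, and 17194 had none. A gene was read by its brightest probe and tested where the detection p was under 0.05 on both arrays of at least 1 group.

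Group means of the 6 groups were fitted with limma 3.58.1 in R 4.3.3 to all 12 arrays, which left 6 residual degrees of freedom, with Benjamini-Hochberg adjustment over 12338 genes. The fit was tested on simulated data. The number of arrays limits the precision. Members and lists were chosen with earlier results of these data known. Values on every array are given for genes called in at least 1 line and for the brightest tested gene of each class, and of each other list up to 4 called genes are named by size of change. Alternatives were neqc (background correction from the detection p-values), median centring, the deposited log2 values, other filters, the mean of all probes, array weights, each line alone, a replicate block, the methods' rule (unadjusted p under 0.05 and 1.2-fold) and leaving out each array. RefSeq held promoter windows for 64 of the 69 genes.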

Additional observations from a re-analysis of the deposited data

Results flagged for a closer look

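By the F test of limma, the 3 lines responded differently to Y15 in 2 of the 31 histone genes, H4C12 (adjusted p = 0.00221) and H2BC12 (adjusted p = 0.00704), and for 18.6% of all genes tested. H4C12 had log2 changes of 0.00, -0.06 and -0.72, and H2BC12 of 0.77, 0.01 and 0.35, in TPC1, BCPAP and K1.

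Among the genes named from other lists the same test was passed by CDKN1A (adjusted p = 0.00121), CDKN1C (adjusted p = 0.0383), CCNE1 (adjusted p = 0.00708), RNU1-3 (adjusted p = 0.00157), RNA5S9 (adjusted p = 0.00099), RNU1-1 (adjusted p = 0.00515) and SNORD3D (adjusted p = 5.59e-05). CDKN1A, CDKN1C and the 4 small RNAs had their largest log2 change in TPC1, and CCNE1 in K1.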

How the results depend on the processing

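The counts of called histone genes rest on 2 arrays a group and moved with most settings. K1 Y15 replicate 1 and replicate 2 widen the shared spread, and their part in these moves was not tested for each setting. Leaving out each array in turn, TPC1 had 2 to 9 genes higher and 1 to 2 lower, BCPAP 0 to 6 higher and 0 to 3 lower, and K1 0 to 8 higher and 1 to 5 lower. Median log2 changes ran from 0.0903 to 0.126 (TPC1), -0.00912 to 0.0295 (BCPAP) and -0.10008 to 0.0372 (K1). The lines differed in response for 2 to 12 genes, and untreated TPC1 and BCPAP differed in 6 to 13, TPC1 and K1 in 2 to 13, and BCPAP and K1 in 5 to 11. The share of all genes called moved too, between 19.4% and 40% (TPC1), 6.31% and 27.7% (BCPAP) and 2.97% and 28.6% (K1). With neqc, TPC1 had 9 higher (median 0.344), BCPAP 2 lower and K1 0 higher (median 0.117). With median centring, TPC1 had 1 higher and 2 lower, BCPAP 2 higher and 0 lower, K1 0 higher and 1 lower (median -0.0705), the response differed for 4, and untreated TPC1 differed from BCPAP in 5 and from K1 in 4, while 21.2%, 17% and 1.13% of all genes were called in TPC1, BCPAP and K1. With array weights TPC1 had 11 higher and 2 lower, BCPAP 2 higher, K1 0 higher, 6 genes differed in response, and 16 differed between untreated TPC1 and K1, while 46.4%, 18.2% and 5.44% of all genes were called. Fitted alone, TPC1 had 10 higher and 2 lower, BCPAP 4 higher and 0 lower, and K1 0 of either kind, against 46.2%, 17.6% and 0% of all genes. The methods' rule gave 8 higher in TPC1 and 3 in K1, the mean of all probes 0 higher in K1, a detection p under 0.01 0 lower in BCPAP, and no filter a median of -0.0093 in K1. In either direction the methods' rule took in 32.5% of all genes in TPC1 and 18.4% in K1. The mean of all probes called 9.86% in K1, and a detection p under 0.01 called 17.9% in BCPAP. The deposited log2 values moved no count. For differences in response and between untreated lines, the share of all genes was taken in the main fit alone. The counts of histone genes in other settings thus have no background beside them there.

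The replicate numbers did not pair the samples: deviations of same-numbered arrays correlated at 0.193 (TPC1), -0.183 (BCPAP) and -0.00995 (K1) across genes. With the replicate number as a block, TPC1 had 7 genes higher, BCPAP 0 higher and 0 lower, K1 0 higher, and the response differed for 4. In either direction that fit called 28.7%, 12.7% and 7.47% of all genes in TPC1, BCPAP and K1.

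Signs of called values turned with median centring for HINFP in TPC1 (-0.0767) and MCM6 in BCPAP (0.0077). Among the 31 histone genes it turned the sign of 3 values in TPC1, 3 in BCPAP and 2 in K1, none called in either fit, such as H4C3 (0.39) and H4C12 (0.33) in BCPAP, H4C12 in TPC1 (-0.26) and H2AC25 in K1 (-0.07). In K1, 7 of the 31 turned without Y15 replicate 1 and 6 without Y15 replicate 2. K1 log2 changes of opposite sign in these 2 fits included -0.36 (without Y15 replicate 1) and 0.94 (without Y15 replicate 2) for H2AC18. In the same order they were -0.63 and 0.58 for H2AC20, 0.38 and -0.76 for UHRF1, and -0.43 and 0.85 for RNA5S9. They were -0.32 and 0.99 for H2AC19, -0.30 and 0.51 for H2BC21, and -0.21 and 0.38 for H2AC25. For the 10 histone genes named by rule, each value was compared with the main fit of 12 arrays alone. Of these, 582 values kept their direction and side of the threshold, and 17 turned in sign with no call in either fit. A further 42 lost the call and 16 gained one, and no called value turned against the main fit. Of 35 calls named from other lists, 20 were lost without at least 1 of the 12 arrays. The cause of these shifts was not tested. Signal near background limits what a change can show for most of the 31 genes.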
